A study of Mus musculus with 36 samples.

Results

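The genes described here are 9 genes of liver glycogen metabolism, measured in mouse liver with and without the insulin receptor at 3 times of day. They are 4 glycogen-targeting subunits of protein phosphatase 1 (Ppp1r3b, Ppp1r3c, Ppp1r3d and Ppp1r3g), 3 enzymes of glycogen synthesis (Ugp2, Gys2 and Gbe1) and 2 genes of glycogen breakdown (Pygl and Phka2). They were chosen by name, and every array probe whose gene name in the scanner files was one of the 9 was taken, which gave 14 probes of 56605 on the array. The 9 genes were among 23057 genes tested.

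The study compared the liver transcriptome of knockout mice, labelled IRLKO, with that of control mice, labelled IRLWT. In the knockouts the insulin receptor gene Insr, with its exon 4 flanked by LoxP sites, was deleted by a tamoxifen-inducible Cre recombinase under the transthyretin (TTR) promoter, which is active in hepatocytes. All mice were male, 11 weeks old, on a C57BL/6J-crossed background and fed standard chow ad libitum. Livers were taken at Zeitgeber time 8, 12 or 16 (ZT8, ZT12, ZT16), in hours after lights-on, with lights going off at ZT12. Each of the 6 groups of genotype and time held 6 samples, 1 array each. When tamoxifen was given, and whether controls carried the Cre transgene, is not stated in the labels. The labels number the samples within a group without naming litters or cohorts, so p-values measure the spread between these samples.

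Glycogen is the glucose store of the liver. Glycogen synthase adds glucose from UDP-glucose and is active when dephosphorylated, whereas glycogen phosphorylase releases glucose and is active when phosphorylated by phosphorylase kinase. The PPP1R3 proteins bring protein phosphatase 1 to the glycogen particle, where it dephosphorylates these enzymes. Insulin and feeding favour storage, and mice take most of their food in the dark phase, which began at ZT12 here.

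Levels are log2 processed signals minus the 75th percentile of the array, so 0 is the 75th percentile of that array and 1 unit is a 2-fold difference in signal. They compare samples for 1 probe and never 1 gene with another. Ratios are knockout over control on the log2 scale, and a gene is called when its Benjamini-Hochberg adjusted p from limma, over all genes, is under 0.05. On its brightest probe Insr, the targeted gene, had 29.3%, 27.2% and 31.8% of the control signal in the knockouts at ZT8, ZT12 and ZT16. The groups on this probe did not overlap at any time (log2 ratios -1.77, -1.88 and -1.65). A dimmer Insr probe, A_52_P6490, had mean levels of -4.68, -5.25 and -4.57 in knockouts and -3.74, -3.77 and -4.00 in controls. It was well above background on 4, 1 and 4 of the 6 knockout arrays, and its groups overlapped at ZT16. All 6 hepatocyte markers were well above background on all 36 arrays. The log2 of their summed signal did not overlap between genotypes at any time, with 10.72 to 11.38 in knockouts and 11.42 to 11.65 in controls at ZT8. Of these markers, 2 were called lower at each time and 1 was called higher at ZT12. The 3 endothelial markers were called higher at ZT12, 2 of them also at ZT16, with a summed level of 3.61 to 4.19 in ZT12 knockouts and 3.20 to 3.65 in ZT12 controls. The summed level of the 4 stellate cell and fibroblast markers was 6.0 to 6.2 in ZT12 knockouts and 5.1 to 5.9 in ZT12 controls. Of these 4, 1 was called higher at ZT12 and 1 at ZT16. Of 3 red cell markers, 1 was called lower at ZT8, 2 higher and 1 lower at ZT12, and 1 higher and 1 lower at ZT16. Of 3 fat markers, 1 at each time was called lower, and of 3 bile duct markers 1 was called higher, at ZT16 only. The part of these shifts in the results that follow was not tested. In whole-liver RNA, fewer cells of a type and less RNA per cell cannot be told apart. The muscle markers Ckm and Mb, and the pancreas markers Cpa1 and Prss2, were above background on 0 arrays. Of the other markers of those tissues, Myh4 and Tnnt3 were tested and not called at any time, Acta1 was above background on 4 arrays, and Cela2a was called higher in knockouts at each time. The ZT8 knockout replicate 3 stood apart from its group, at 3.21 on the second principal component against 29.28 to 46.08 for the others, so member calls that change without it are also given without it.

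The promoter windows of the members show what sequence lies just before the start of each gene. RefSeq, on build GRCm38.p6, had a window for 7 of the 9 genes, taken here as the 250 bases before the start. Ppp1r3b and Gys2 had none and were not searched. Printed are the windows of the 3 targeting subunits that had one and of Pygl, 5′ to 3′ on the strand of the gene, because these are the genes with the largest fold differences between genotypes or with a motif match. Capitals mark a match to a searched motif, on either strand. Ppp1r3g lies on the plus strand at chr13:35967656-35967905, Ppp1r3c on the minus strand at chr19:36736605-36736854, Ppp1r3d on the minus strand at chr2:178414464-178414713 and Pygl on the minus strand at chr12:70227684-70227933.
Ppp1r3g: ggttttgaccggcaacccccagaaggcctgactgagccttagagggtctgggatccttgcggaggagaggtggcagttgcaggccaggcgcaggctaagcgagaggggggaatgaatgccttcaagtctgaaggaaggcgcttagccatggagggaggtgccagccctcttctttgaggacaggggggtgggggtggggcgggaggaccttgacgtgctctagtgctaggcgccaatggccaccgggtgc
Ppp1r3c: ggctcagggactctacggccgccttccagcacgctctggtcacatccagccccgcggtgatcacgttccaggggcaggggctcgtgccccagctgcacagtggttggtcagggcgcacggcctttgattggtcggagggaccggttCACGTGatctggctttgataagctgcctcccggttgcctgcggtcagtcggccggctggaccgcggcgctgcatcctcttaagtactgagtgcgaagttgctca
Ppp1r3d: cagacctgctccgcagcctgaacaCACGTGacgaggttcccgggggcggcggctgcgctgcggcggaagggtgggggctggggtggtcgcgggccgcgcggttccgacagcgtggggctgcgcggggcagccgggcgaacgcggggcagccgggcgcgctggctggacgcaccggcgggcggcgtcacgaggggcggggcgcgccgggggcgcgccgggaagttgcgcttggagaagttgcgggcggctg
Pygl: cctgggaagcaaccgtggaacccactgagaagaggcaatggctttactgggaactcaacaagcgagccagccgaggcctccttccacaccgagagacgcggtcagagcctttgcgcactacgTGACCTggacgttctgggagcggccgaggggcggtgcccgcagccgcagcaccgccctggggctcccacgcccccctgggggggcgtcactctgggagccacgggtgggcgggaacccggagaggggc
The E-box CACGTG, the element bound by the clock proteins CLOCK and BMAL1 and by other bHLH factors, was in the window of Ppp1r3c, 104 bases before the start, and in that of Ppp1r3d, 226 bases before it. It was present in 6.02% of 32851 mouse promoter windows of this length. The nuclear receptor motif AGGTCA was in the Pygl window on the opposite strand, 128 bases before the start, and in 14.0% of all windows. The forkhead motif GTAAACA (3.17% of windows), the cyclic AMP response element TGACGTCA (1.55%) and the D-box TTATGTAA (0.819%) matched no window of the 7 members searched. All were searched on both strands, and no searched motif overlapped another in these windows. Such a match is a description of letters in these windows only.

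At ZT8, 5 of the 9 genes were called, where 35.4% of all genes tested were. Higher in knockouts were 4 of them (16.7% of all genes) and lower was 1 (18.7%). At ZT12 the count was again 5 (42.2% of all genes), made up of 2 higher (19.6%) and 3 lower (22.6%). At ZT16 it was 6 (39.9%), made up of 2 higher (19.9%) and 4 lower (20.0%). Counts of this size among 9 genes are only a description. Knockout and control arrays did not overlap for 4, 3 and 3 of the 9 genes, where 15.5%, 21.3% and 19.2% of all genes did not overlap. The median absolute log2 ratio of the 9 genes was 0.51, 0.53 and 0.48, and that of all genes 0.25, 0.29 and 0.28.

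Ppp1r3g and Ppp1r3b were called at all 3 times (19.7% of all genes were), Ppp1r3g always higher and Ppp1r3b higher at ZT8 and ZT12 and lower at ZT16. In all, 8 of the 9 were called at 1 time or more (60.4% of all genes), and Phka2 was called at none. Without the ZT8 knockout replicate 3, 7 members were called at ZT12, with Gys2 and Phka2 added.

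**Figure D1:**
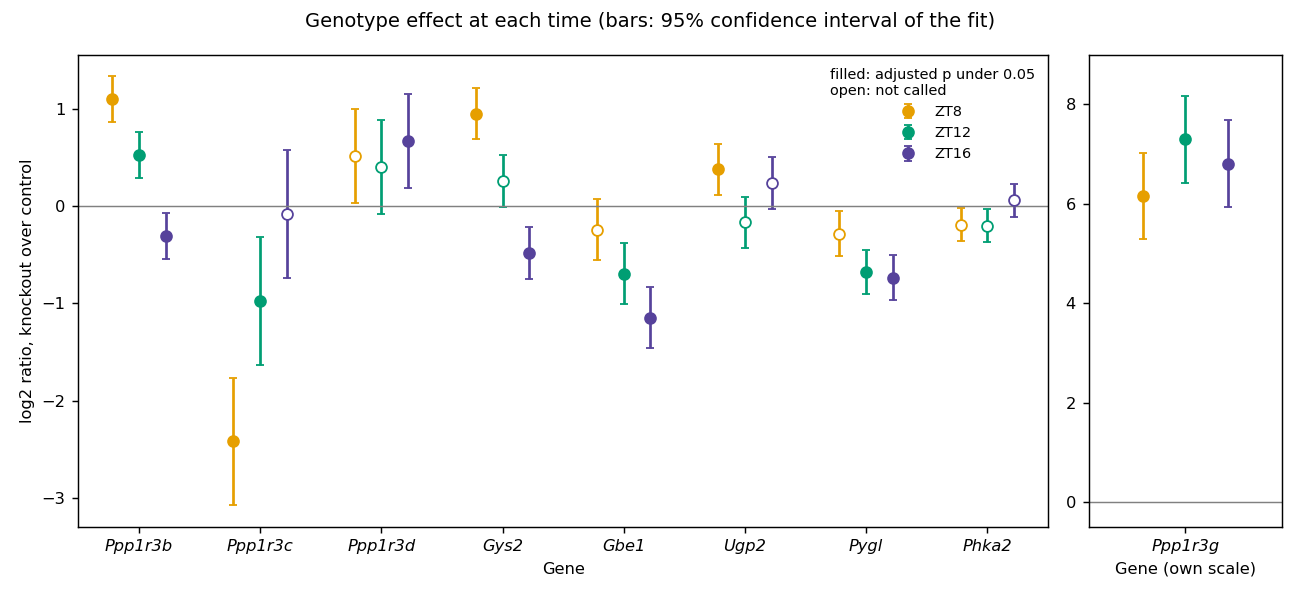
Log2 ratio of knockout over control (vertical axis) for each gene at ZT8, ZT12 and ZT16, with the 95% confidence interval of the fit as bars, 6 arrays per group. Filled points are called and open points are not. Ppp1r3b and Gys2 pass from higher at ZT8 to lower at ZT16, Ppp1r3c is lowest at ZT8, and Ppp1r3g, on its own scale, is between 6.16 and 7.29 at all times.

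Ppp1r3b encodes GL, the main glycogen-targeting subunit of liver, which directs the phosphatase to glycogen synthase and binds phosphorylase a. Its probe lies on chromosome 8 at 36451115 to 36451174 of build mm9. At ZT8 its level in knockouts ran from 6.94 to 7.53 with a median of 7.35, and in controls from 5.90 to 6.60 with a median of 6.12. By ZT12 the knockouts were at 7.35 to 7.93, median 7.66, and the controls at 6.80 to 7.48, median 7.20. The ZT16 knockouts spanned 6.52 to 7.17, median 6.79, and the ZT16 controls 7.03 to 7.35, median 7.14. Every knockout was thus above every control at ZT8, while the groups overlapped at ZT12 and ZT16, with most knockouts on the high side at ZT12 and on the low side at ZT16.

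The Ppp1r3b ratio was 1.1 ± 0.12 (SE, n = 6 and 6) at ZT8, a 2.15-fold higher signal (adjusted p = 9.0e-09). The ZT12 ratio was 0.53 (adjusted p = 5.0e-04) and the ZT16 ratio -0.30 (adjusted p = 0.0361). The fall at ZT16 was no longer called with normexp background correction (-0.27, adjusted p = 0.0553), in the authors' deposited table (-0.24, adjusted p = 0.0873), with no filter, with only the 2 groups compared, or without any 1 of 5 single arrays (-0.28 to -0.24). Within single wash batches, of 1 to 3 arrays a side, the ratio was 0.96 to 1.30 at ZT8, 0.19 to 0.64 at ZT12 and -0.51 to -0.22 at ZT16.

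Time of day moved Ppp1r3b differently in the 2 genotypes. In controls it rose between ZT8 and ZT12, by 1.01 (2.01-fold, adjusted p = 2.7e-07), and the ZT16 level differed from ZT12 by -0.05 (adjusted p = 0.91). In knockouts it rose by 0.43 to ZT12 (adjusted p = 0.0123), and this rise was not called under quantile normalization (0.34, adjusted p = 0.0821) or with only the 2 groups compared. It then fell by 0.88 to ZT16 (adjusted p = 5.1e-06). The genotype effect at ZT16 was lower than at ZT8 by -1.41 (95% CI -1.74 to -1.07, adjusted p = 1.7e-06) and lower than at ZT12 by -0.83 (adjusted p = 0.00635). Of all genes, 9.75% were called in the former test of the difference and 1.95% in the latter.

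Ppp1r3c encodes PTG, a targeting subunit found in many tissues that binds glycogen synthase and phosphorylase. The probe of Ppp1r3c lies on chromosome 19 at 36806457 to 36806516 (mm9). Among ZT8 knockouts it ran from -0.62 to 0.45, median 0.21, and among ZT8 controls from 1.85 to 3.05, median 2.52. The ZT12 knockouts lay between 0.11 and 1.47, median 0.40, and the controls between -0.01 and 2.56, median 1.61. At ZT16 both genotypes were high, with 1.91 to 3.18 in knockouts, median 2.69, and 2.49 to 3.26 in controls, median 2.69. The groups stood fully apart at ZT8, overlapped at ZT12, where the controls spanned 2.56 units, and had the same median at ZT16.

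Knockouts had 18.7% of the control Ppp1r3c signal at ZT8 (ratio -2.42 ± 0.32, SE, n = 6 and 6, adjusted p = 6.2e-07), 50.9% at ZT12 (-0.97, adjusted p = 0.0152), and by ZT16 had 94.4% (-0.08, 95% CI -0.74 to 0.57, adjusted p = 0.861). The ZT12 call was lost with only the 2 groups compared (adjusted p = 0.112) and without the ZT12 control replicate 3 (-0.74, adjusted p = 0.0681). Batch by batch, the ratio was -2.74 to -2.0 at ZT8, -1.38 to -0.61 at ZT12 and -0.43 to 0.57 at ZT16. The genotype effect at ZT16 exceeded that at ZT8 by 2.33 (95% CI 1.40 to 3.27, adjusted p = 9.6e-04).

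In knockouts Ppp1r3c rose 4.15-fold from ZT12 to ZT16 (adjusted p = 4.7e-05) and 5.97-fold from ZT8 to ZT16 (adjusted p = 3.1e-07). The controls differed by 0.24 between ZT8 and ZT16 (adjusted p = 0.646). Between these times the controls fell by 0.92 to ZT12 (adjusted p = 0.0494) and rose by 1.16 from there (adjusted p = 0.0376). The fall was lost in 8 of the other settings tried and without any 1 of 26 single arrays, with a value of -0.59 without ZT12 control replicate 5. The rise was lost in 4 of the other settings and without any 1 of 8 arrays (0.83 without the same replicate).

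Ppp1r3d encodes R6, a widely expressed targeting subunit. Its probe lies on chromosome 2 at 178145994 to 178146053 (mm9) and was dim but well above background on all 36 arrays. Levels ran from -3.61 to -2.37 in ZT8 knockouts (median -3.19) and from -3.90 to -3.36 in ZT8 controls (median -3.72). They ran from -3.40 to -2.39 in ZT12 knockouts (median -3.21) and from -4.24 to -2.40 in ZT12 controls (median -3.42). They were -3.48 to -2.44 in ZT16 knockouts (median -3.00) and -4.01 to -3.37 in ZT16 controls (median -3.69). The knockout medians were higher each time, and the ranges overlapped each time.

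The Ppp1r3d ratio was 0.51 at ZT8 (95% CI 0.03 to 1.00, adjusted p = 0.0904), 0.40 at ZT12 (95% CI -0.08 to 0.89, adjusted p = 0.176) and 0.67 at ZT16 (95% CI 0.18 to 1.15, adjusted p = 0.0246). The ZT16 call was lost with normexp (0.17, adjusted p = 0.201), in the authors' deposited table (0.30, adjusted p = 0.0724) and without any 1 of 4 arrays. A call was gained at ZT8 without knockout replicate 1 (0.61) and at ZT12 without control replicate 5 (0.66). No comparison of times called Ppp1r3d in either genotype. The 4 macrophage markers, whose summed level ran from 5.07 to 6.35 in ZT16 knockouts and from 4.35 to 5.58 in ZT16 controls, held 1 gene called higher at ZT16 and 3 at ZT12, and their part in the Ppp1r3d result was not tested. In a single wash batch the ratio was 0.27 to 0.73 at ZT8, -0.42 to 1.17 at ZT12 and 0.43 to 0.80 at ZT16.

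Ppp1r3g encodes a targeting subunit that is known in mouse liver for changing with fasting and feeding. The array reads it on chromosome 13 at 36061999 to 36062058 (mm9). Knockouts at ZT8 were at 4.00 to 5.93, median 5.71, and controls at -1.76 to 1.19, median -0.86. The ZT12 range was 3.55 to 5.54 in knockouts, median 4.33, and -4.07 to -1.48 in controls, median -2.68. The ZT16 range was 0.71 to 2.19 in knockouts, median 1.63, and -6.73 to -4.45 in controls, median -4.92. No array of 1 genotype reached the other at any time, but the probe was well above background on only 2 of the 6 ZT16 control arrays.

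Ppp1r3g had the largest genotype ratios of the 9 genes, at 6.16 ± 0.43, 7.29 ± 0.43 and 6.81 ± 0.43 (SE, n = 6 and 6; adjusted p = 2.2e-12, 4.4e-14 and 1.8e-13). These are 71.3-fold at ZT8 and 157-fold at ZT12. No fold is given for ZT16, where 4 of the 6 control arrays were not well above background. The ZT16 ratio was 3.93 with normexp and 4.82 in the authors' deposited table, both still called (adjusted p = 8.1e-12 and 4.3e-13), and the cause of these differences was not tested. At ZT8 those settings gave 5.77 and 5.94, and at ZT12 6.04 and 6.61. Ratios taken inside 1 wash batch were 5.91 to 6.70 at ZT8, 5.18 to 8.20 at ZT12 and 6.61 to 7.64 at ZT16.

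Ppp1r3g was lower at ZT16 than at ZT8 in both genotypes. From ZT8 to ZT16 knockouts fell by 3.88 (14.7-fold lower, adjusted p = 3.6e-08), of which 2.97 came after ZT12 (adjusted p = 1.6e-05). Their step from ZT8 to ZT12 was -0.91 and was not called (95% CI -1.80 to -0.02, adjusted p = 0.184), but was with normexp (-0.93, adjusted p = 0.0486). Controls fell by 2.05 to ZT12 (adjusted p = 9.9e-04) and by 2.48 from there to ZT16 (adjusted p = 9.0e-04). With normexp the latter control value was -0.78 (adjusted p = 0.19) and that in the authors' deposited table was -1.17 (adjusted p = 0.0425). The control change from ZT8 to ZT16 was -4.53 (adjusted p = 1.9e-09), -1.99 with normexp and -2.74 in the authors' table. The difference between the genotype effects at ZT16 and ZT8 was 0.65 (adjusted p = 0.591), against -1.83 with normexp (adjusted p = 0.0059) and -1.11 in the authors' table (adjusted p = 0.129).

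**Figure D2:**
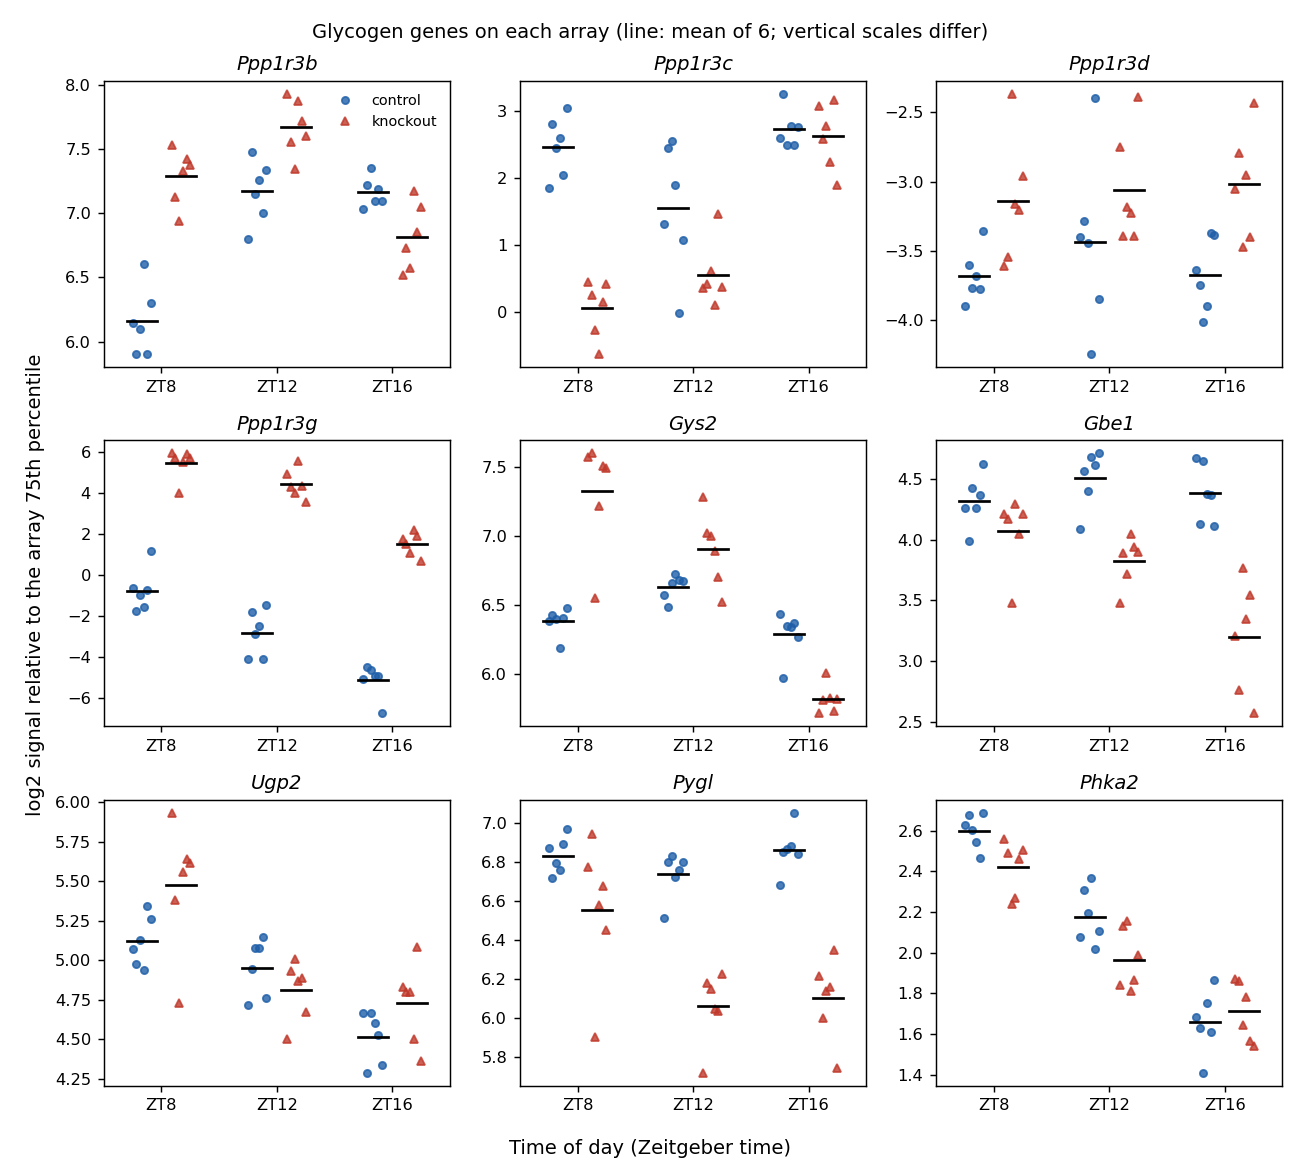
Level of each gene on every array (vertical axis, log2 signal minus the array's 75th percentile; scales differ between panels) by Zeitgeber time (horizontal axis), with controls as circles, knockouts as triangles and the mean of 6 as a line. The genotypes do not overlap for Ppp1r3g at any time, for Ppp1r3b, Ppp1r3c and Gys2 at ZT8, or for Gbe1 and Pygl at ZT12 and ZT16, and 1 ZT8 knockout lies low for Gys2, Gbe1, Ugp2, Pygl and Ppp1r3g.

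Ugp2 encodes UDP-glucose pyrophosphorylase, which makes the UDP-glucose used by glycogen synthase. Its probe lies on chromosome 11 at 21221975 to 21222034 (mm9). Levels at ZT8 were 4.73 to 5.93 in knockouts, median 5.59, and 4.94 to 5.34 in controls, median 5.10. Levels at ZT12 were 4.50 to 5.01 in knockouts, median 4.88, and 4.72 to 5.15 in controls, median 5.01. Levels at ZT16 were 4.36 to 5.08 in knockouts, median 4.80, and 4.29 to 4.66 in controls, median 4.57. The genotypes overlapped at each time, and at ZT8 5 of the 6 knockouts lay above every control.

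The Ugp2 ratio was 0.38 at ZT8 (95% CI 0.12 to 0.64, adjusted p = 0.0216), -0.16 at ZT12 (adjusted p = 0.321) and again positive at ZT16 (0.24, adjusted p = 0.142). Without the ZT8 knockout replicate 3 the ZT8 ratio was 0.52 (adjusted p = 4.1e-04), and the call was lost with only the 2 groups compared (adjusted p = 0.156) and without either of 2 other arrays. At ZT16 quantile normalization (0.31, adjusted p = 0.0151) and the authors' deposited table (0.38, adjusted p = 0.00306) called Ugp2 higher. From ZT8 to ZT16 Ugp2 fell in both genotypes, by 0.63 in controls (adjusted p = 3.7e-04) and by 0.77 in knockouts (adjusted p = 2.5e-05). Most of the knockout fall, 0.71, came before ZT12 (adjusted p = 4.0e-04), while the control step of -0.46 came after it (adjusted p = 0.038) and was lost in 4 other settings and without any 1 of 10 arrays. Wash batches taken alone gave -0.10 to 0.60 at ZT8, -0.22 to -0.14 at ZT12 and 0.17 to 0.29 at ZT16.

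Gys2 encodes liver glycogen synthase, which extends the glycogen chain. The Gys2 probe lies on chromosome 6 at 142371157 to 142371216 (mm9). ZT8 knockouts were at 6.55 to 7.60, median 7.50, and ZT8 controls at 6.19 to 6.48, median 6.40. ZT12 knockouts were at 6.52 to 7.28, median 6.94, and ZT12 controls at 6.48 to 6.72, median 6.67. ZT16 knockouts were at 5.71 to 6.00, median 5.81, and ZT16 controls at 5.97 to 6.43, median 6.34. The knockouts were thus all above the controls at ZT8, and all but 1 were below every control at ZT16.

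Gys2 signal was 1.93-fold higher in knockouts at ZT8 (ratio 0.95 ± 0.13, SE, n = 6 and 6, adjusted p = 9.4e-07), with a ratio of 0.26 at ZT12 (95% CI 0.00 to 0.53, adjusted p = 0.105) and 1.40-fold lower at ZT16 (-0.48, adjusted p = 0.0036). The ZT12 ratio was called in the authors' deposited table (0.28, adjusted p = 0.0122), with array weights, and without either of 2 arrays, the ZT8 knockout replicate 3 among them (adjusted p = 0.0175). By wash batch it was 0.66 to 1.12 at ZT8, -0.06 to 0.50 at ZT12 and -0.67 to -0.36 at ZT16. In knockouts Gys2 fell 2.86-fold from ZT8 to ZT16 (-1.51 ± 0.13, SE, adjusted p = 5.2e-10), and ZT16 knockouts did not overlap those of ZT12. Controls differed by -0.08 between ZT8 and ZT16 (95% CI -0.35 to 0.18, adjusted p = 0.715). Their steps of 0.25 to ZT12 (adjusted p = 0.212) and -0.33 from there (adjusted p = 0.17) were called for Gys2 without the ZT8 knockout replicate 3 (0.25, adjusted p = 0.045, and -0.31, adjusted p = 0.0344). Every ZT12 control lay above all ZT8 and ZT16 controls (lowest 6.48 at ZT12, highest 6.478 at ZT8 and 6.434 at ZT16). The genotype effect at ZT16 was lower than at ZT8 by -1.43 (95% CI -1.81 to -1.06, adjusted p = 6.3e-06). Against ZT12 it was lower by -0.74 (adjusted p = 0.0277), a call lost with no filter (adjusted p = 0.0539), with slide as fixed block (adjusted p = 0.0542) and without either of 2 arrays.

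Gbe1 encodes the glycogen branching enzyme. It had 3 probes, and the brightest, which represents the gene, lies on chromosome 16 at 70569840 to 70569899 (mm9). In ZT8 knockouts it ran from 3.48 to 4.29, median 4.19, and in ZT8 controls from 3.99 to 4.62, median 4.31. In ZT12 knockouts it ran from 3.48 to 4.04, median 3.89, and in ZT12 controls from 4.09 to 4.71, median 4.59. In ZT16 knockouts it ran from 2.57 to 3.76, median 3.28, and in ZT16 controls from 4.11 to 4.67, median 4.37. Only at ZT8 did the genotypes overlap, and the knockouts were below all controls from ZT12 on.

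The Gbe1 ratio was -0.24 at ZT8 (95% CI -0.55 to 0.07, adjusted p = 0.234), -0.70 at ZT12 (1.62-fold lower, adjusted p = 5.2e-04) and -1.15 ± 0.15 at ZT16 (SE, n = 6 and 6, 2.22-fold lower, adjusted p = 5.3e-07). The effect at ZT16 was lower than at ZT8 by -0.91 (95% CI -1.35 to -0.46, adjusted p = 0.00605). Knockouts fell by 0.88 from ZT8 to ZT16 (adjusted p = 4.3e-05), and controls differed by 0.03 (adjusted p = 0.933). Each wash batch gave a lower knockout mean, with -0.35 to -0.20 at ZT8, -0.79 to -0.55 at ZT12 and -1.28 to -0.94 at ZT16.

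The other Gbe1 probes differed from each other. A_65_P10159, at 70569433 to 70569492 near the brightest probe, had ratios of -0.24, -0.64 and -1.18 and followed that probe over the 36 arrays (Pearson r = 0.991, a description). A_55_P2727654, at 70361835 to 70361894, is assigned in the files to an Ensembl transcript in place of the RefSeq transcript of the other probes. Its levels at ZT8 were -1.62 to -0.45 in knockouts and -0.07 to 0.50 in controls, which did not overlap. Its ratio was -1.19 at ZT8 (adjusted p over all probes = 2.3e-05), -1.47 at ZT12 (6.2e-07) and -1.64 at ZT16 (9.5e-08), and it followed the brightest probe less closely (r = 0.697). On this probe the effect at ZT16 differed from that at ZT8 by -0.46 (95% CI -1.03 to 0.11, adjusted p = 0.362) and the F test was not called (adjusted p = 0.585). Its control level at ZT16 was lower than at ZT8 by -0.53 (adjusted p = 0.0468). From ZT8 to ZT12 it changed by -0.91 in controls (adjusted p = 0.00165) and by -1.20 in knockouts (adjusted p = 1.4e-04). The brightest probe changed by 0.19 and -0.265 over that step and was not called in either genotype. With the mean of the 3 probes Gbe1 was called at ZT8 too (-0.55, adjusted p = 0.00169). The exon each probe reads was not determined here.

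**Figure D3:**
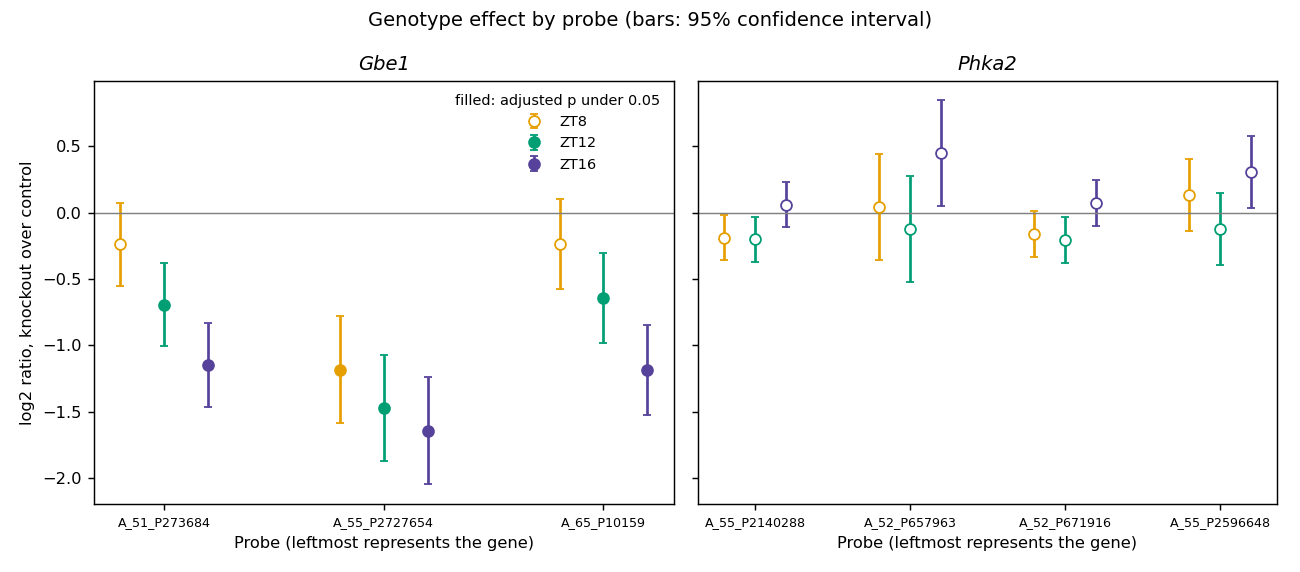
Log2 ratio of knockout over control (vertical axis) for each probe of Gbe1 (left) and Phka2 (right) at the 3 times, with 95% confidence intervals, 6 arrays per group. The Gbe1 probe A_55_P2727654 is called at all 3 times, from -1.19 to -1.64, the other Gbe1 probes from ZT12 on, and no Phka2 probe at any time.

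Pygl encodes liver glycogen phosphorylase, which releases glucose 1-phosphate from glycogen. The Pygl probe lies on chromosome 12 at 71291855 to 71291914 (mm9). Knockout levels were 5.90 to 6.94 at ZT8, median 6.63, against 6.72 to 6.97 in controls, median 6.83. They were 5.72 to 6.23 at ZT12, median 6.10, against 6.51 to 6.83, median 6.78. They were 5.74 to 6.35 at ZT16, median 6.15, against 6.68 to 7.05, median 6.86. Every knockout lay below all controls at ZT12 and ZT16, and at ZT8 4 of the 6 knockouts did, with the other 2 among the controls.

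Pygl had 62.6% of the control signal at ZT12 (ratio -0.68 ± 0.11, SE, n = 6 and 6, adjusted p = 1.5e-05) and 60.1% at ZT16 (-0.73 ± 0.11, adjusted p = 5.0e-06). At ZT8 the ratio was -0.28 (95% CI -0.51 to -0.05, adjusted p = 0.051), close to the threshold. Quantile normalization (-0.44), the authors' deposited table (-0.35), the strict filter, both ways of fitting slide and 6 single arrays left out called it lower, while without the ZT8 knockout replicate 3 it was -0.16 (adjusted p = 0.212). In knockouts Pygl fell by 0.49 from ZT8 to ZT12 (adjusted p = 0.00379), and in controls it differed by -0.10 (adjusted p = 0.645). The difference between the genotype effects at ZT16 and ZT8 was -0.45 (adjusted p = 0.0697), and -0.59 without that replicate (adjusted p = 0.0031). Ratios by wash batch were -0.38 to -0.15 at ZT8, -0.71 to -0.57 at ZT12 and -0.90 to -0.49 at ZT16.

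Phka2 encodes the liver alpha subunit of phosphorylase kinase, the kinase that activates phosphorylase. It had 4 probes, and the brightest lies on chromosome X at 157029014 to 157029073 (mm9). For ZT8 the levels were 2.24 to 2.56 in knockouts, median 2.48, and 2.46 to 2.69 in controls, median 2.61. For ZT12 they were 1.81 to 2.16, median 1.93, and 2.02 to 2.37, median 2.15. For ZT16 they were 1.54 to 1.87, median 1.71, and 1.41 to 1.86, median 1.66. The genotypes overlapped throughout, and both moved down from time to time.

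The Phka2 genotype ratio was -0.19 at ZT8 (95% CI -0.36 to -0.02, adjusted p = 0.0729), -0.20 at ZT12 (95% CI -0.37 to -0.03, adjusted p = 0.0527) and 0.06 at ZT16 (95% CI -0.11 to 0.23, adjusted p = 0.606). The ZT12 ratio, at -0.24 to -0.19, was called in 6 of the other settings and without any 1 of 9 arrays, the ZT8 knockout replicate 3 among them (adjusted p = 0.045), and the ZT8 ratio in 1 setting, with slide fitted as fixed block (-0.19, adjusted p = 0.039). Time of day called Phka2 in both genotypes. Controls fell by 0.95 from ZT8 to ZT16 (1.93-fold, adjusted p = 5.1e-10) and knockouts by 0.70 (1.62-fold, adjusted p = 1.4e-07), and in both the ZT16 arrays lay below all ZT8 arrays. The knockout step of -0.27 from ZT12 to ZT16 (adjusted p = 0.0304) was lost with no filter, with only the 2 groups compared, with the mean of the 4 probes (-0.05, adjusted p = 0.854) and without any 1 of 5 arrays. The other probes of Phka2 correlated with the brightest at r = 0.969, 0.798 and 0.838 over the 36 arrays, and none was called between genotypes at any time. A_52_P671916 had ratios of -0.16, -0.21 and 0.07 at ZT8, ZT12 and ZT16. The sign at ZT8 was the opposite on A_52_P657963 (0.05, -0.13 and 0.45) and A_55_P2596648 (0.13, -0.12 and 0.31). Within wash batches the ratio of the brightest probe was -0.21 to -0.15 at ZT8, -0.22 to -0.17 at ZT12 and -0.27 to 0.17 at ZT16.

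Set side by side by time of day, controls had 4 of the 9 genes called between ZT8 and ZT12 (14.8% of all genes), 1 of them higher at the later time (7.70%) and 3 lower (7.14%). Between ZT12 and ZT16 the control count was 4 (3.62%), 1 higher (1.67%) and 3 lower (1.95%). Between ZT8 and ZT16 it was 4 again (26.6%), 1 higher (13.4%) and 3 lower (13.2%). Without the ZT8 knockout replicate 3 both control steps, to ZT12 and from there to ZT16, called 5 members, with Gys2 added. The same comparisons in knockouts called 5 members between ZT8 and ZT12 (13.2% of all genes), 1 higher (6.72%) and 4 lower (6.50%). Between ZT12 and ZT16 they called 6 (12.6%), 1 higher (7.05%) and 5 lower (5.53%). Between ZT8 and ZT16 they called 8 (28.9%), 1 higher (15.5%) and 7 lower (13.4%), and Ppp1r3d was the member left over. The median change from ZT8 to ZT16 was -0.70 over the 9 genes in knockouts and 0.00 in controls, against 0.01 and 0.04 over all genes. With only the 2 groups compared, limma called 0 members between ZT8 and ZT12 in knockouts, where 5 had an unadjusted p under 0.05.

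Whether the genotype effect itself changed with time was tested directly. The F test over the 3 times called 4 members, Ppp1r3b (adjusted p = 7.1e-06), Gys2 (3.1e-05), Ppp1r3c (0.00331) and Gbe1 (0.0204), and 8.46% of all genes. The Gbe1 call was lost without the ZT16 knockout replicate 2 (adjusted p = 0.0532). Without the ZT8 knockout replicate 3 the F test called 6 members, with Ugp2 (adjusted p = 0.00755) and Pygl (adjusted p = 0.00537) added, and with array weights it also called 6. Between ZT8 and ZT16 the same 4 were called (9.75% of all genes), with the effect on Ppp1r3c higher at ZT16 (5.43% of all genes) and that on the other 3 lower (4.32%). Without the ZT8 knockout replicate 3 the count was 5, with Pygl added. Between ZT12 and ZT16 the effect was lower for 2 members, Ppp1r3b and Gys2, with 1.95% of all genes called, 1.09% higher and 0.854% lower. Between ZT8 and ZT12 limma called 0 members and 1.25% of all genes (0.564% higher and 0.685% lower), with an unadjusted p under 0.05 for 6 members. Without the ZT8 knockout replicate 3, 4 members were called there, all lower at ZT12, namely Gys2 (-0.87), Ugp2 (-0.69), Ppp1r3b (-0.62) and Pygl (-0.52).

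For the rest of the pathway, a list of 27 other genes of glycogen metabolism was used, of which 23 were tested. Ppp1r3a, Ppp1r3f and Ppp1r1a were too dim, and Gys1, the muscle-type synthase, lacked a value on some array. At ZT8 14 of the 23 were called (35.4% of all genes), 5 of them higher (16.7%) and 9 lower (18.7%). The count was 12 at ZT12 (42.2%), 2 higher (19.6%) and 10 lower (22.6%). It was 12 at ZT16 (39.9%), 3 higher (19.9%) and 9 lower (20.0%). The median ratio of the list was -0.09, -0.16 and -0.15, and that of all genes 0.01, -0.02 and 0.00. Of the 23, 7 were called lower at all 3 times and 2 higher at all 3, where 10.6% and 8.89% of all genes were.

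Among the targeting subunits outside the 9, Ppp1r3e was lower at each time (-0.35, -0.50 and -0.52), with 0.50 to 0.89 in ZT8 knockouts and 0.87 to 1.25 in ZT8 controls. This is the opposite direction to Ppp1r3g at every time and to Ppp1r3b at ZT8 and ZT12. Stbd1, which tethers glycogen to membranes, was lower by a similar ratio at each time (-0.68, -0.70 and -0.62). Among the phosphatase catalytic subunits, directions differed. Ppp1ca was lower (-0.27, -0.18 and -0.22), and its calls at ZT12 and ZT16 were lost in the authors' deposited table (-0.03 and -0.09). Ppp1cc was higher at ZT8 (0.27, adjusted p = 0.0129), and its later ratios of 0.11 and 0.03 did not pass the threshold. Ppp1cb, at 0.004, 0.10 and 0.17, passed it at no time. The largest fall in the list was that of Ppp1r1b, a phosphatase 1 inhibitor (DARPP-32), at -1.20, -1.11 and -2.37 (adjusted p = 3.7e-06, 9.3e-06 and 8.4e-12). Its levels at ZT16 were -0.92 to 0.18 in knockouts and 1.77 to 2.41 in controls, and its genotype effect at ZT16 was lower than at ZT8 by -1.17 (adjusted p = 0.00269).

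On the enzyme side, Pgm1, a phosphoglucomutase that interconverts glucose 1-phosphate and glucose 6-phosphate, was lower without overlap at each time (-0.37, -0.63 and -0.75, adjusted p = 2.5e-04, 6.9e-08 and 2.3e-09). The phosphorylase kinase subunits Phkb (-0.36, -0.43 and -0.30) and Phkg2 (-0.34, -0.36 and -0.23) were lower, but Phkg2 was not called at any time with the mean of its probes (-0.16, -0.05 and -0.17). Called higher at all 3 times were Gaa, the lysosomal glucosidase (0.23, 0.20 and 0.47), and Pygb, the brain-type phosphorylase (0.99, 1.34 and 1.32). The Gaa calls were lost at ZT8 and ZT12 with only the 2 groups compared and at ZT16 with the mean of its probes. The Pygb probe was dim (control means -4.20, -3.99 and -3.81 at ZT8, ZT12 and ZT16) but well above background on 35 of the 36 arrays. The Pygb call at ZT8 was lost with normexp (0.29), in the authors' deposited table (0.40) and without the ZT8 knockout replicate 3 (0.78).

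Pgm2l1 went from 0.35 at ZT8 to -0.47 at ZT16, both called. With the mean of its probes both calls were lost. The ZT8 call was also lost in other alternatives, single arrays left out among them. Of the synthase kinases, Gsk3b was lower at ZT12 (-0.28, lost in the authors' deposited table at -0.16) and ZT16 (-0.29), and Gsk3a was called at no time. Glycogenin, Gyg, was higher at ZT16 (0.38, adjusted p = 0.00836), with its call lost with the mean of its probes. Nhlrc1 (malin) was lower at ZT8 (-0.40, lost with only the 2 groups compared, with no batch term and without any 1 of 3 arrays) and ZT12 (-0.67), and Epm2a (laforin) at ZT12 (-0.35, adjusted p = 0.0321), a call lost in 4 other settings and without any 1 of 7 arrays.

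**Figure D4:**
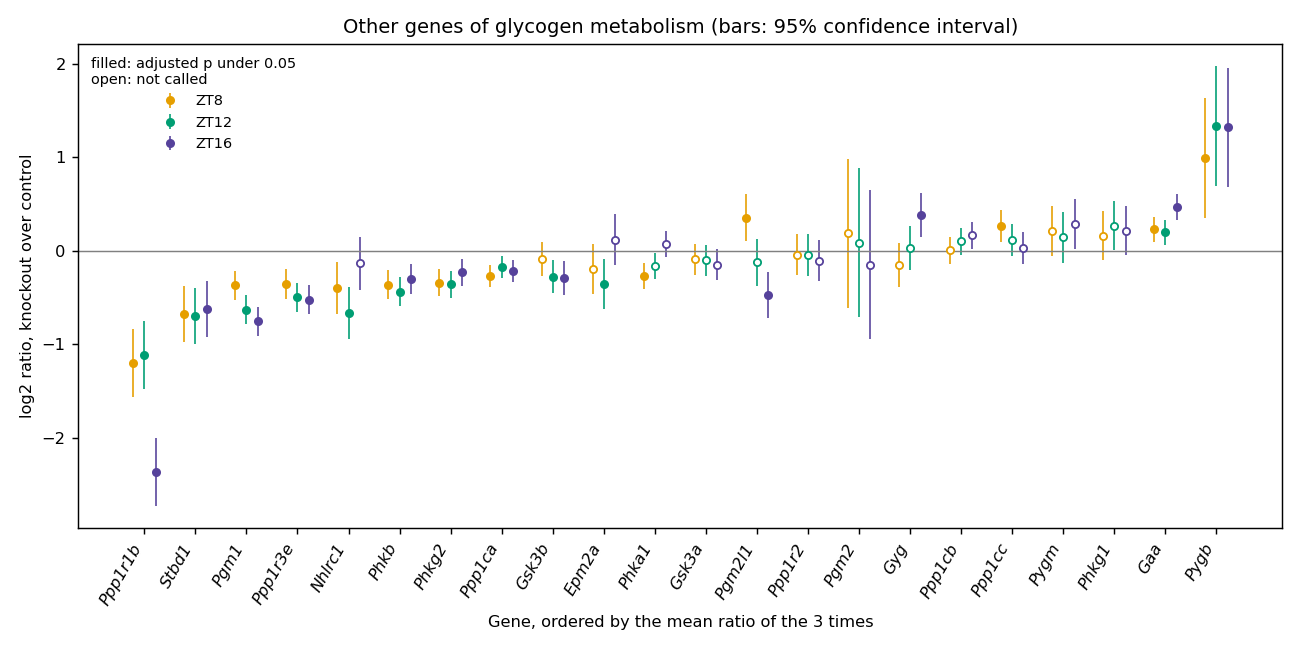
Log2 ratio of knockout over control (vertical axis) for 22 of the 23 other genes of glycogen metabolism, ordered by the mean of the 3 times, with 95% confidence intervals, 6 arrays per group. Filled points are called. Ppp1r1b lies lowest, reaching -2.37 at ZT16, and Pygb highest, and most called points lie below 0.

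Genes whose level ran most like each member's over the 36 arrays, with wash batch means removed, were sought among 12801 named genes that passed the background filter on all arrays. The arrays share their groups, so these correlations describe the pattern of the groups as much as single mice. For Ppp1r3b the 3 nearest were Mthfsd (Pearson r = 0.91), Esr1 (0.876) and Ap2s1 (0.876), and for Gys2 they were Nhlrc2 (0.927), Arhgap21 (0.896) and Tmed5 (0.895). For Ppp1r3c they were Mad2l2 (0.885), Slc30a10 (0.869) and Shroom1 (0.868). Ppp1r3g ran most like Cbx7 (0.958), Nek8 (0.957) and Hmga1 (0.953), whose own genotype ratios at ZT12 were 1.52, 0.77 and 1.17. Ppp1r3d ran most like Hcls1 (0.818), Slfn8 (0.816) and Naaa (0.80).

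Gbe1 was closest to Bbox1 (0.944), Akr1c12 (0.923) and Galm (0.898), and Pygl to Adipor2 (0.93), Pex13 (0.924) and Nr1h4 (0.919), the gene of the bile acid receptor FXR. Nr1h4 itself had ratios of -0.53, -1.22 and -1.42. Ugp2 was closest to Usp22 (0.843), Bdh1 (0.838) and Tnfrsf19 (0.836). Phka2 was closest to Dbp (0.907), a clock output gene, then to Zfp512b (0.897) and Cnppd1 (0.895). The genotype ratios of Dbp were -0.10, -0.72 and -1.32, unlike those of Phka2 (-0.19, -0.20 and 0.06). Between members, the highest correlation over all 36 arrays was that of Gbe1 with Pygl (r = 0.802), which was 0.56 once group means were removed, and the lowest that of Ppp1r3c with Gys2 (r = -0.768), which was 0.003 once group means were removed.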

How the data were processed

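RNA was extracted from liver, labelled with Cy3 from 200 ng and hybridised to 1-colour Agilent arrays, 1 per sample, per the labels' protocols. The deposited files hold 1 processed intensity per spot, with background subtraction and detrending within each array by Feature Extraction 10.10.1.1, per the file headers. The scanner files also hold mean and background signals per spot before this processing, from which the normexp alternative started. Flags mark spots that stand over background, saturate or are outliers. The authors' deposited table holds log2 values of 32801 probes, whose sorted columns are identical, so it is quantile normalized. How it was made is otherwise not given in the sources used here.

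Processed signals were taken to log2 and the 75th percentile of each array was subtracted. Outlier spots were dropped and spots of a probe averaged. Probes well above background on at least 6 of 36 arrays were kept (34774), 93 of them lacking a value were dropped, and the brightest probe represented each of 23057 genes. Between 53.72% and 63.13% of an array's spots passed the background flag, 0 were saturated, and the 75th percentile of intensity was 311.1 to 525.5. Arrays give no counts, so their number limits the precision.

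Group means with wash batch as a fixed effect were fitted in limma 3.58.1 (R 4.3.3), with 28 residual degrees of freedom. The 3 wash batches of 11, 12 and 13 arrays each held all 6 groups. P values were adjusted by Benjamini-Hochberg over all genes within each test, or over all probes for single probes. The fits were tested on simulated data. Probe positions are those of the files (mm9), and RefSeq supplied current names and promoter windows. Named are the 9 members, Insr, the genes of the pathway list called at any time and the 3 nearest genes of each member. Of the pathway list, 1 gene is counted but not reported by name here. A few genes outside that rule (pathway genes not called, markers) are named to account for their lists. The members and lists were chosen with earlier results of these data known. Alternatives were quantile normalization, normexp (offset 50), the authors' table, other filters, other ways to combine probes, other batch and slide terms, array weights, the replicate number as a block, only the groups compared, and leaving out each array.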

Additional observations from a re-analysis of the deposited data

Results flagged for a closer look

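Of 54 sets of 6 arrays (9 genes in 6 groups), 7 had 1 array far from the other 5, where about 2.7 are expected from a criterion that chance meets in 1 of 20 sets. The ZT8 knockout replicate 3 was low for Ppp1r3g (4.00 against 5.54 to 5.93), for Gys2 (6.55 against 7.21 to 7.60) and for Gbe1 (3.48 against 4.04 to 4.29). Gys2 was low in the ZT8 control replicate 4 (6.19 against 6.38 to 6.48) and in the ZT16 control replicate 2 (5.97 against 6.27 to 6.43). Ppp1r3g was low in the ZT16 control replicate 6 (-6.73 against -5.08 to -4.45), a group where most arrays were not well above background. Pygl was low in the ZT12 control replicate 1 (6.51 against 6.72 to 6.83).

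The genotype effect differed between times for 4 genes by the test of the difference itself. From ZT8 to ZT16 it moved by -1.41 for Ppp1r3b (adjusted p = 1.7e-06), -1.43 for Gys2 (adjusted p = 6.3e-06), -0.91 for Gbe1 (adjusted p = 0.00605) and 2.33 for Ppp1r3c (adjusted p = 9.6e-04). From ZT12 to ZT16 it moved by -0.83 for Ppp1r3b (adjusted p = 0.00635) and -0.74 for Gys2 (adjusted p = 0.0277).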

How the results depend on the processing

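For the 27 genotype ratios of the members, 13 other settings gave 348 values, of which 323 kept their side of the threshold, 8 lost a call and 17 gained one. Leaving out each of the 36 arrays gave 972 values, of which 941 kept it, 12 lost a call and 19 gained one. In none of these did a call change sign. The number of members called between ZT12 and ZT16 in controls was 4, and was 2 with no filter, with slide as a fixed block, with the replicate number as a block, and at lowest 2 with 1 array left out (6 arrays, ZT12 control replicate 1 among them). For ZT8 to ZT12 in knockouts it went from 5 to 0 with only the groups compared. For the change of the genotype effect from ZT8 to ZT12 it went from 0 to 1 with quantile normalization, normexp, the authors' table or the strict filter, and to 4 with array weights or without the ZT8 knockout replicate 3, the highest with 1 array left out. From ZT12 to ZT16 it went from 2 to 1 with no filter, slide as a fixed block, or at lowest without 1 of 2 arrays. The change of the Ppp1r3g effect from ZT8 to ZT16 turned from 0.65 to -1.83 with normexp. The causes were not tested.

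The replicate numbers were not taken as pairing. Samples of the same number correlated at -0.337 to 0.2 in their deviations from group means (90 pairs, median -0.005), and with the replicate block 5, 6 and 6 members were called at ZT8, ZT12 and ZT16. No F test was run with only the groups compared. Signal near background limits Ppp1r3g in ZT16 controls.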
